A study of Mus musculus with 8 samples.

Results

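Heat shock chaperones are proteins that hold, refold or hand on other proteins that are unfolded. The 10 genes described here, Hspa1a, Hspa1b, Hspa8, Hsph1, Dnajb1, Hsp90aa1, Hsp90ab1, Hspb1, Hspd1 and Hspe1, were taken by symbol from a table of 55487 genes, and all 10 were found in it. They were measured in 8 RNA-seq libraries of colon intestinal epithelial cells, the cell layer that lines the large bowel, 4 of wild type (WT) and 4 of PIM1+/- mice. The second genotype denotes 1 intact copy of the kinase gene Pim1. All were of the C57BL/6J strain, and no treatment is given for either genotype. The sources used here give neither the age of the mice nor the structure of the Pim1 allele. Whether each library came from its own animal is not stated, and p-values therefore cover the spread between these libraries alone.

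HSP70 proteins bind short unfolded stretches and release them on ATP exchange. J-domain proteins such as Dnajb1 bring them their substrates, and Hsph1 exchanges their nucleotide. HSP90 proteins act later, on kinases and receptors that are nearly folded, and the Hspd1 and Hspe1 proteins form a closed folding chamber inside mitochondria. Under stress, heat shock factor 1 binds repeats of the letters GAA and their complement TTC in front of many of these genes. In the colon, the inducible HSP70 and the small chaperone Hspb1 are known as proteins of the surface epithelium that protect it against injury.

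Promoter sequences are shown for the 3 genes that passed the test below (Hspa1b, Hspb1 and Hspd1) and for Hspa1a and Hspe1, whose promoters are a near copy of, or shared with, those of Hspa1b and Hspd1. They come from RefSeq promoter windows on GRCm38.p6 (250 bases before and 50 after a start site), and 7 of the 10 genes had a window. Hspa8, Hsp90aa1 and Hsp90ab1 are named only. Capitals mark the letters GAANNTTC or TTCNNGAA, each its own reverse complement, which stand for 2 neighbouring units of the heat shock element. Each sequence is written 5′ to 3′ on the strand given. The Hspa1a and Hspa1b stretches are the 250 bases before each gene, chr17:34972157-34972406 and chr17:34959239-34959488 on the minus strand. The Hspb1 stretch is chr5:135887669-135887918 on the plus strand. The stretch between Hspd1 and Hspe1, which point away from each other, is chr1:55088025-55088131 on the plus strand (the strand of Hspe1), and an exon of an alternative Hspd1 transcript in GENCODE M21 spans it.
Hspa1a: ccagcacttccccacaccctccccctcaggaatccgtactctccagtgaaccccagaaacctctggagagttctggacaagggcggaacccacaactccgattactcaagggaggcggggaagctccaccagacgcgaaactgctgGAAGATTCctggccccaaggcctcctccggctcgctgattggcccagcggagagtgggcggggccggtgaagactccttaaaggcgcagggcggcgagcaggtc
Hspa1b: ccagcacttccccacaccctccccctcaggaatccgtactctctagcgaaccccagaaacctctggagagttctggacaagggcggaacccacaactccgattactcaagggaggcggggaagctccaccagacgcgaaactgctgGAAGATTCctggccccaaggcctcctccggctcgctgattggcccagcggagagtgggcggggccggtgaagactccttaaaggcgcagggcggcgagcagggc
Hspb1: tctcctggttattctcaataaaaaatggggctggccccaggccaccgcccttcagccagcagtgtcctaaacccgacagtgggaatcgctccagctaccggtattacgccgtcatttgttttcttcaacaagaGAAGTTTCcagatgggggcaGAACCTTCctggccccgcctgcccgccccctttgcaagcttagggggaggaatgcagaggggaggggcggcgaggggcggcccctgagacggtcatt
Hspd1 to Hspe1: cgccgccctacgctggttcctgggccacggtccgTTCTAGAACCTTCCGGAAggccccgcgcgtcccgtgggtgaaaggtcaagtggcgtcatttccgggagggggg

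Hspa1a and Hspa1b each held 1 such pair, GAAGATTC, beginning at position -104 from the start. Their windows were identical at 296 of 300 bases, and counted from 1 at the 5′ end with the Hspa1a base first they differed by C44T, T47C, T249G and C276T, of which 3 lie in the printed 250 bases. Hspb1 held 2 pairs, GAAGTTTC at -117 and GAACCTTC at -97. The Hspd1 and Hspe1 starts lay 215 bases apart, and the 3 overlapping pairs between them (TTCTAGAA, GAACCTTC and TTCCGGAA from -89, -84 and -79 of Hspe1) fell in the Hspe1 window and in 1 of 2 Hspd1 windows. The other Hspd1 window, at the annotated gene start 55088243, held none. With a further unit in the same spacing, the element of 3 units occurred there in 2 overlapping places. Hsph1 held the same 3 pairs and 1 run of 3 units in both of its 2 windows, which overlap. Of these pairs 1 began before the start site (-54 or -33, by window). The other 2, which form the run, began after it. Dnajb1 held none in its 2 windows, which says only that these letters are not in those windows. Of all 32851 windows of 300 bases 15.1% held a pair and 0.603% a run of 3 units. A match describes the letters and was not tested as a binding site.

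Values were in TPM, reads divided by transcript length and scaled to a fixed total, from which sequencing depth cannot be read. Pim1 stood at 8.79, 7.86, 5.72 and 8.83 TPM (WT 1 to 4) and at 7.97, 7.23, 5.64 and 5.84 TPM (PIM1+/- 1 to 4), and the genotypes overlapped (log2 fold change -0.19 ± 0.15 (SE), limma adjusted p = 0.411). All 11 epithelial markers were detected, with Epcam at 1177 to 1283 TPM in WT. Their summed level was 18980 to 24477 TPM in WT and 27954 to 34254 TPM in PIM1+/-. Car1 alone had a mean of 7135 TPM in WT and 12859 TPM in PIM1+/-. Epcam (means of 1226 and 1284 TPM, limma adjusted p = 0.474) and Cdh1 (367 and 345 TPM, 0.362) did not pass. Slc26a3 (0.265) and Muc2 (0.470) did not pass either, and the other 7 of the 11 passed as higher. For this and the counts that follow, 8.93% of all 12760 tested genes passed as higher and 8.54% as lower. At an unadjusted p under 0.05 in limma, 2077 of the 12760 were higher and 2055 lower. T and NK cell markers summed to 13.3 to 27.8 TPM in WT and 48.1 to 114 TPM in PIM1+/-, where 8 of 10 tested (of 13) passed as higher and none was at 0 throughout (Cd8a met the filter through PIM1+/- alone, and 5 of the 10 were above 1 TPM in every library, 4 of them higher). Myeloid markers summed to 25.1 to 31.3 and 48.1 to 63.3 TPM, and 1 of 12 was at 0 in every library. Most of these sums was Cd14, at 23.3 to 27.6 TPM in WT and 33.9 to 45.7 TPM in PIM1+/-. Of the 4 tested, Mcpt1 and Mcpt2 met the filter through PIM1+/- alone and so had to differ, C1qa reached 1 TPM in 1 WT library, and Cd14, above it in all 8, was higher. Red blood cell transcripts summed to 5.88 to 14.6 and 20.9 to 27.9 TPM, with 2 of 3 tested (of 4) higher. Fibroblast markers reached 1.53 TPM in sum in WT and 11.5 TPM in PIM1+/-, most of it Fn1, the 1 tested of 7, which met the filter through PIM1+/- alone. Without Fn1 the sums were 0.27 to 0.63 TPM in WT and 0.21 to 2.17 TPM in PIM1+/-, with overlap, and 1 marker was at 0 in every library. Endothelial markers summed to 3.55 to 5.76 and 3.22 to 4.20 TPM, and 0 of 2 tested passed (limma, 0 also at an unadjusted p under 0.05), while B and plasma cell, smooth muscle, and neuron and glia markers were too low to test (sums of at most 1.11, 1.36 and 1.43 TPM). Mitochondrially encoded transcripts took 159650 to 182246 TPM in WT and 124178 to 135706 TPM in PIM1+/-, a shift that moves all other TPM values. In bulk RNA, fewer cells of a type and less RNA per cell cannot be told apart.

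The 10 genes spanned nearly the whole range of expression in these cells. Over the 8 libraries the mean level was 1147 TPM for Hspa8, 662 for Hsp90ab1, 181 for Hspd1, 165 for Hspe1, 119 for Hsp90aa1, 77.0 for Hspa1b, 38.0 for Hspa1a, 34.2 for Hsph1, 32.1 for Dnajb1 and 1.76 for Hspb1. Hspa8 ranked 114 and Hspb1 ranked 11726 among the 12760 tested genes, which had to reach 1 TPM in 4 or more of the 8 libraries. In that order Hspa8, Hsp90ab1 and Hspb1 were separated from every other member across the libraries, and each of the other genes overlapped its neighbours. The constitutive HSP70 and the constitutive cytosolic HSP90 stood above their inducible relatives in every library. Hspa1a and Hspa1b together came to 7.62 to 9.38% of Hspa8 in WT and 8.31 to 14.3% in PIM1+/-. Hsp90aa1 came to 15.8 to 18.9% of Hsp90ab1 in WT and 16.8 to 20.8% in PIM1+/-, and the genotypes overlapped in both shares.

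Against WT, 2 of the 10 genes passed as higher in PIM1+/- (Hspa1b and Hspd1) and 1 as lower (Hspb1), in limma on log2(TPM + 1) with Benjamini-Hochberg adjustment over all 12760 tested genes and a threshold of 0.05. Hspb1 met the filter on low values through WT, where it was higher, so its call leans on that filter. Of all tested genes 8.93% passed as higher and 8.54% as lower, and counts of 2 and 1 in 10 genes are not far from that background. The median log2 fold change (PIM1+/- over WT) was 0.11 over the 10 genes and -0.01 over all tested genes. Genotypes did not overlap for 1 member, Hspd1, which was higher, against 11.9% of all tested genes higher and 11.6% lower without overlap. All 3 calls lay just under the threshold, between 0.0394 and 0.0470. The 10 log2 fold changes ran from -0.93 to 0.54, with 7 above 0 (as were 6130 of all 12760 tested genes). The plot of each gene by library shows the values behind these calls.

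**Figure D1:**
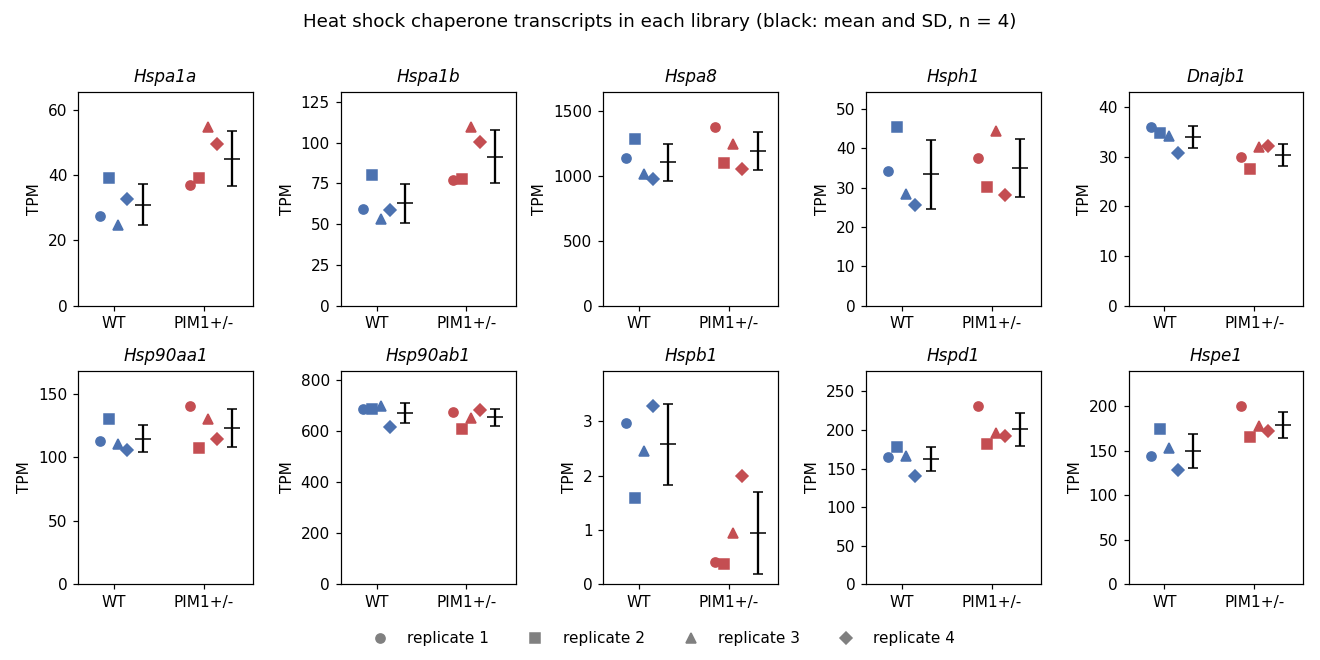
TPM of each of the 10 genes (vertical axes from 0, each on its own scale) in 4 WT (blue) and 4 PIM1+/- (red) libraries, with marker shape for the replicate number and black bars for the mean and SD (n = 4). Hspd1 is the 1 gene whose genotypes do not overlap, and Hspb1 sits at or below 3.28 TPM in every library.

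Hspa1a and Hspa1b encode the stress-inducible HSP70, and both stood about 1.46 times higher in the mean of PIM1+/-. Hspa1b (ENSMUSG00000090877, chr17:34956436-34959238, GRCm38, minus strand) stood at 59.13, 80.34, 52.9 and 58.53 TPM (WT 1 to 4) and at 77.09, 77.97, 109.5 and 100.67 TPM (PIM1+/- 1 to 4), an order kept for the genes that follow. WT replicate 2 lay above PIM1+/- replicates 1 and 2, so the genotypes overlapped, while PIM1+/- replicates 3 and 4 lay above every WT library. The mean rose from 62.7 ± 12.1 to 91.3 ± 16.3 TPM (SD, n = 4), with a log2 fold change of 0.54 ± 0.15 (SE, 95% interval 0.20 to 0.88, limma adjusted p = 0.0394). The call ended without WT replicate 1, 3 or 4 (adjusted p = 0.0938, 0.0972 and 0.0932) and without PIM1+/- replicate 3 or 4 (0.0896 and 0.0853), and it stood without any 1 of the other libraries (0.0135 to 0.0439). It also ended under upper quartile scaling (0.0605), scaling without mitochondrial transcripts (0.0563), limma without the trend (0.0561) and no filter (0.104).

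Hspa1a (ENSMUSG00000091971, chr17:34969190-34972156, minus strand) measured 27.47, 39.05, 24.56 and 32.75 TPM in WT and 37.01, 38.99, 54.65 and 49.64 TPM in PIM1+/-. It had the same high WT replicate 2 and the same high PIM1+/- replicates 3 and 4 as Hspa1b. Its log2 fold change of 0.53 ± 0.16 (95% interval 0.16 to 0.90, limma adjusted p = 0.0522) did not pass. It passed without WT replicate 2 (adjusted p = 0.0260), without PIM1+/- replicate 1 (0.0465) and among genes with a mean of at least 5 TPM (0.0483).

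The split of reads between this pair is uncertain. Their longest transcripts were 99.2% identical over 2201 aligned bases, and 1350 of the 2868 stretches of 100 bases in Hspa1a (47.1%) also occurred in Hspa1b. Hspa1b held 64.1 to 68.3% of their sum in WT and 66.7 to 67.6% in PIM1+/-. The sum was 86.6, 119, 77.5 and 91.3 TPM in WT and 114, 117, 164 and 150 TPM in PIM1+/-, again with overlap through WT replicate 2. Fitted as a single row, it gave a log2 fold change of 0.54 ± 0.15 (95% interval 0.19 to 0.88, limma adjusted p = 0.0412). The starts lie 12918 bases apart on the chromosome that also carries Pim1, 5.47 Mb from Hspa1b. A predicted gene, Gm20481, overlaps Hspa1a on the opposite strand and did not pass the filter, and the sources used here do not give the strand setting of the counting.

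Marker lists of other cells were set beside this pair. In PIM1+/- replicates 1 to 4 the T and NK cell markers summed to 69.5, 48.1, 97.3 and 114 TPM, and replicates 3 and 4 were the higher ones for these markers as for Hspa1a and Hspa1b. In WT the sums were 25.5, 22.0, 13.3 and 27.8 TPM, and replicate 2, the highest for both HSP70 genes, was not the highest for the markers. PIM1+/- replicate 3, the highest library for both HSP70 genes, had the lowest PIM1+/- sums of myeloid (48.1 TPM), fibroblast (3.64 TPM) and red blood cell markers (20.9 TPM). Most of the myeloid sum in that library was Cd14 (33.92 TPM), and most of the fibroblast sum was Fn1 (2.87 TPM). Without Fn1 the lowest PIM1+/- fibroblast sum was that of replicate 2 (0.21 TPM, with 0.77 TPM in replicate 3). The part of other cells in the values of this pair was not tested. A score over 20 tested non-epithelial markers ran from -1.15 to -0.401 in WT and from 0.322 to 1.06 in PIM1+/-. The filter builds in part of that separation, since 4 of the 20 markers (Cd8a, Mcpt1, Mcpt2 and Fn1) met it through PIM1+/- libraries alone. With that score as a covariate the log2 fold change of Hspa1b was 0.03 ± 0.37 (limma adjusted p = 0.980) and that of Hspa1a was -0.12 (0.926). Because the score separates the genotypes, the effects of score and genotype cannot be told apart, and 0 of all 12760 genes passed in that fit (1544 at an unadjusted p under 0.05, against 4132 without the score).

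Hspa8 (ENSMUSG00000015656, chr9:40800984-40810087, plus strand), the constitutive HSP70 that serves newly made proteins and clathrin uncoating, was the most abundant of the 10. It measured 1135.92, 1286.56, 1016.75 and 973.05 TPM in WT and 1373.17, 1098.94, 1243.83 and 1050.79 TPM in PIM1+/-. The ranges overlapped widely, with a log2 fold change of 0.11 ± 0.11 (95% interval -0.13 to 0.35, limma adjusted p = 0.514). Hsph1 (chr5:149614287-149636376, minus strand), the nucleotide exchange factor, measured 34.15, 45.3, 28.35 and 25.48 TPM in WT and 37.47, 30.05, 44.32 and 28.13 TPM in PIM1+/-. Its spread within a genotype was the widest of the genes above 10 TPM (coefficient of variation 26.3% in WT and 21.2% in PIM1+/-). The log2 fold change of 0.08 ± 0.19 (adjusted p = 0.814) turned negative without WT replicate 4 (-0.03) or PIM1+/- replicate 3 (-0.04).

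Dnajb1 (chr8:83608193-83612653, plus strand), the J-domain protein that feeds substrates to HSP70, is itself a classic heat-inducible gene. It measured 35.92, 34.75, 34.18 and 30.75 TPM in WT and 29.89, 27.51, 31.88 and 32.21 TPM in PIM1+/-. WT replicate 4 lay within the PIM1+/- range, with a log2 fold change of -0.15 ± 0.07 (95% interval -0.32 to 0.01, limma adjusted p = 0.178). The interval ends below the 0.54 of Hspa1b, and the difference between these genes was not tested.

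The cytosolic HSP90 genes did not pass in either direction. Hsp90aa1 (chr12:110690605-110702728, minus strand), the inducible form, measured 112.95, 130.02, 110.25 and 105.59 TPM in WT and 140.45, 107.34, 130.02 and 114.81 TPM in PIM1+/- (log2 fold change 0.10 ± 0.09, 95% interval -0.12 to 0.31, limma adjusted p = 0.517). Hsp90ab1 (chr17:45567775-45573271, minus strand), the constitutive form, measured 685.16, 687.46, 696.88 and 613.99 TPM in WT and 674.87, 608.84, 648.77 and 683.29 TPM in PIM1+/-. It was the steadiest of the 10, with a coefficient of variation of 5.70% in WT and 5.12% in PIM1+/-. It had a log2 fold change of -0.04 ± 0.06 (95% interval -0.17 to 0.09, adjusted p = 0.708). Their transcripts were 76.4% identical over 2180 aligned bases. Annotated pseudogene copies elsewhere in the genome (at least 90% identical over at least 80% of their length: 8 of Hspa8, 5 of Hsp90aa1, 3 of Hsp90ab1, 6 of Hspd1 and 4 of Hspe1) were listed at no more than 0.938% of the TPM of the parent gene in any library.

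Hspb1 (ENSMUSG00000004951, chr5:135887919-135889563, plus strand), the small heat shock protein known in mice as Hsp25, was the 1 member that fell. It measured 2.97, 1.59, 2.46 and 3.28 TPM in WT and 0.42, 0.38, 0.95 and 2 TPM in PIM1+/-. The overlap came from PIM1+/- replicate 4, which lay above WT replicate 2, and the other PIM1+/- libraries lay below every WT library. The mean went from 2.58 ± 0.739 to 0.938 ± 0.754 TPM (SD, n = 4), a ratio of 0.364, with a log2 fold change of -0.93 ± 0.27 (95% interval -1.53 to -0.33, limma adjusted p = 0.0410). With a pseudocount of 0.1 in place of 1 the log2 fold change was -1.59 (0.0489).

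At these levels Hspb1 lay among the lowest genes tested. It reached 1 TPM in 5 libraries, of which 4 were WT, so it entered the test through the genotype in which it was higher: the PIM1+/- libraries alone would not have met the filter. The call ended without WT replicate 1, 3 or 4 (adjusted p = 0.101, 0.0826 and 0.104) and without PIM1+/- replicate 1, 2 or 3 (0.0982, 0.0954 and 0.0727). It stood without WT replicate 2 (0.0321) or PIM1+/- replicate 4 (0.00994). It also ended with no filter (0.109) and with the marker score as a covariate (log2 fold change -2.25 ± 0.54, 0.220), and the gene was not tested at a mean of at least 5 TPM.

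Hspd1 and Hspe1, the mitochondrial chaperonin and its lid, lie head to head on chromosome 1 and were measured at nearly equal levels. Hspd1 (ENSMUSG00000025980, chr1:55077835-55088243, minus strand) measured 164.87, 178.04, 165.72 and 140.68 TPM in WT and 230.75, 182.36, 196.6 and 192.68 TPM in PIM1+/-. Every PIM1+/- library lay above every WT library, with the highest value in PIM1+/- replicate 1 and the lowest in WT replicate 4. The mean rose from 162 ± 15.6 to 201 ± 21.0 TPM (SD, n = 4), 1.24 times, with a log2 fold change of 0.30 ± 0.09 (95% interval 0.10 to 0.51, limma adjusted p = 0.0470). The call ended without WT replicate 1, 3 or 4 (adjusted p = 0.0914, 0.0833 and 0.102) and without PIM1+/- replicate 1, 3 or 4 (0.0935, 0.0845 and 0.0675), and stood without WT replicate 2 (0.0399) or PIM1+/- replicate 2 (0.0489). It also ended under upper quartile scaling (0.0526), scaling without mitochondrial transcripts (0.0718), limma without the trend (0.0740), no filter (0.109) and the marker score as a covariate (log2 fold change 0.46 ± 0.24, 0.493).

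Hspe1 (chr1:55088132-55091307, plus strand) measured 143.93, 174.71, 153.28 and 129.06 TPM in WT and 200.37, 166.12, 177.77 and 172.02 TPM in PIM1+/-. WT replicate 2 lay above PIM1+/- replicates 2 and 4. The log2 fold change of 0.26 ± 0.09 (95% interval 0.04 to 0.47, limma adjusted p = 0.0940) did not pass, and it passed without WT replicate 2 (0.0315). The ratio of Hspd1 to Hspe1 stayed between 1.02 and 1.15 in all 8 libraries. The annotated ranges of the pair overlap by 112 bases on opposite strands, just past the Hspe1 end of the stretch shown above. Hspd1 stood at 1.10 to 1.26 times the TPM of Hspa9, the mitochondrial HSP70, in WT and at 1.25 to 1.38 times in PIM1+/-, with a narrow overlap.

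**Figure D2:**
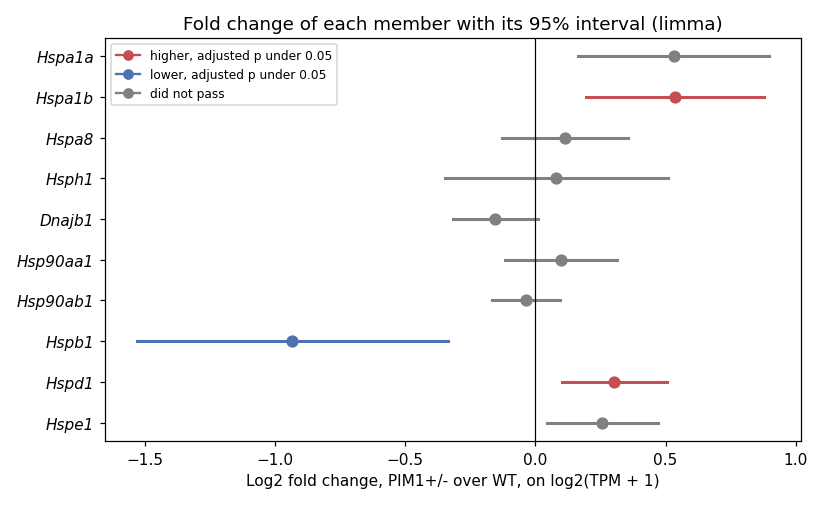
Log2 fold change (PIM1+/- over WT, on log2(TPM + 1)) of each of the 10 genes with its 95% interval from limma, coloured by whether the adjusted p was under 0.05. The intervals of Hspa1a, Hspa1b, Hspd1 and Hspe1 lie above 0, that of Hspb1 lies below 0, and those of the other genes include 0.

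Within a genotype, the genes fell into groups by the libraries in which they were high. WT replicate 2 was the highest WT library for 7 of the 10 genes and WT replicate 4 the lowest for 7. Among PIM1+/- libraries replicate 1 was the highest for 4 (Hspa8, Hsp90aa1, Hspd1 and Hspe1), replicate 3 for 3 (Hspa1a, Hspa1b and Hsph1), and replicate 2 the lowest for 6. After the mean of each genotype was subtracted, the Pearson correlation over the 8 libraries was 0.95 between Hspa1a and Hspa1b, which share reads, and 0.94 between Hspd1 and Hspe1. It was 0.93 between Hspa8 and Hsp90aa1, 0.90 between Hspa8 and Hsph1, and 0.84 between Hspa8 and Hspd1. Hspa1a and Hspa1b had lower values with Hspa8 (0.16 and 0.32), Hsp90aa1 (0.26 and 0.40) and Hspd1 (-0.13 and 0.11), and intermediate ones with Hsph1 (0.45 and 0.61). WT replicate 2 was high for both groups of genes, and the pair differed from Hspa8 in PIM1+/- replicates 1 and 4. Hspb1 correlated negatively with Hspa8 (-0.63) and Hspe1 (-0.57). These correlations describe 8 values that share library and scaling, and no test was made of them.

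**Figure D3:**
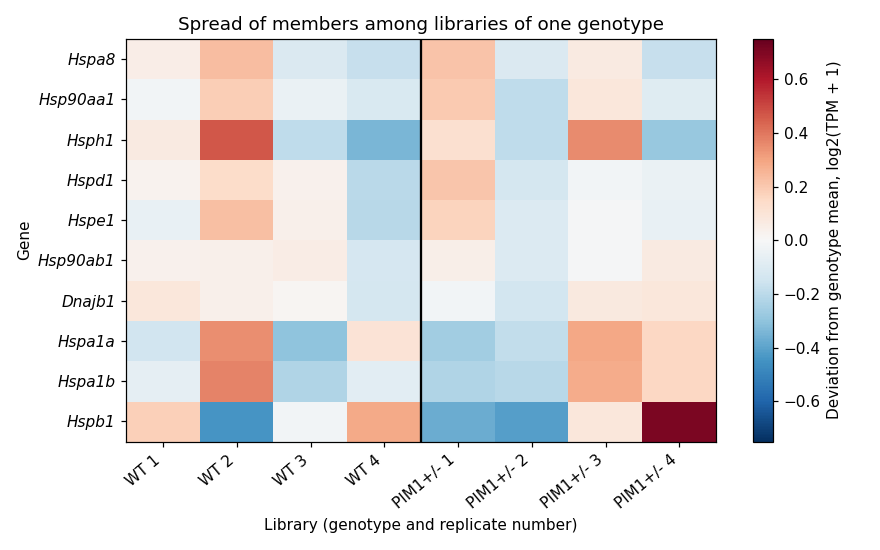
Deviation of each gene from the mean of its genotype on log2(TPM + 1) (colour) in each of the 8 libraries (columns), with WT left of the line. Most genes are above their mean in WT replicate 2 and below it in WT replicate 4, while Hspa1a and Hspa1b are high in PIM1+/- replicates 3 and 4.

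Among all other tested genes, the 5 with the highest mean correlation to the 10 over these deviations were Gps1 (0.645), Rnf34 (0.641), Eaf1 (0.633), Mfap1b (0.632) and Gm9887 (0.628), over 8 libraries. None of the 5 passed the comparison of genotypes. Of the partner genes listed below, Chordc1 (0.573), Ahsa1 (0.554) and Dnaja1 (0.549) came highest, at ranks 59, 105 and 132. Chordc1 and Ahsa1 encode co-chaperones of HSP90, and Dnaja1 a J-domain partner of HSP70.

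The other chaperone genes were examined in 7 lists with 93 tested members. Of these 10.8% (10 genes) passed as higher and 4.30% (4 genes) as lower, against 8.93% and 8.54% of all tested genes, and an 8th list holds immediate early genes. In limma 2077 of all 12760 tested genes were higher and 2055 lower at an unadjusted p under 0.05. Unadjusted counts in the lists below have that background. Of the heat shock factors and their binding proteins, 7 listed, 4 were tested (Hsf1, Hsf2, Hsbp1 and Hsbp1l1). In limma 0 passed (Hsbp1 higher and Hsf2 lower at an unadjusted p under 0.05), and the median log2 fold change was -0.23. Hsf2, a heat shock factor active in development, had the smallest p, at 4.98 ± 1.11 TPM in WT and 3.23 ± 0.571 TPM in PIM1+/- (-0.49 ± 0.16, adjusted p = 0.0623). Of 9 small heat shock proteins other than Hspb1, 2 were tested and 0 passed (1 lower at an unadjusted p under 0.05, median -0.28). Hspb11, also known as a protein of intraflagellar transport, had the smaller p, at 40.7 ± 7.72 TPM in WT and 31.0 ± 1.37 TPM in PIM1+/- (-0.36 ± 0.12, adjusted p = 0.0662).

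Among HSP70 partners, 0 of 23 tested (of 25) passed as higher and 2 as lower, with 2 higher and 4 lower at an unadjusted p under 0.05 and a median of 0.06. These shares, 0% and 8.70%, compare with 8.93% and 8.54% of all tested genes. The unadjusted counts compare with 2077 higher and 2055 lower of all 12760. Bag6, which guards membrane proteins on their way to insertion, fell from 74.9 ± 1.80 to 66.7 ± 1.11 TPM (-0.17 ± 0.04, limma adjusted p = 0.0327). Dnaja4, a J-domain protein, fell from 2.71 ± 0.340 to 1.64 ± 0.415 TPM (-0.50 ± 0.14, 0.0380). Dnajb5 came next and did not pass (-0.28 ± 0.11, 0.120). With 1 library left out, Bag6 passed only without WT replicate 2 (up to 0.0999 otherwise), and Dnaja4 only without WT replicate 2 or PIM1+/- replicate 4 (up to 0.103 otherwise).

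Among the 19 HSP90 partners, all tested, 1 rose and 1 fell (5.26% each, against 8.93% and 8.54% of all tested genes), with a median of 0.11. Fkbp5, a peptidyl-prolyl isomerase of steroid receptor complexes and a well known glucocorticoid-induced gene, rose from 55.2 ± 11.1 to 85.4 ± 4.98 TPM (0.64 ± 0.13, limma adjusted p = 0.0111). It passed in each of the 8 fits with 1 library left out (0.00553 to 0.0331). Ppp5c, a phosphatase bound to HSP90, fell from 101 ± 2.57 to 90.4 ± 3.56 TPM (-0.16 ± 0.05, 0.0499), and passed in none of those 8 fits (0.0541 to 0.124). Unc45a, a myosin chaperone, did not pass (0.29 ± 0.09, 0.0582).

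Of the other mitochondrial chaperones and proteases, 2 of 15 rose and 0 fell (4 higher and 1 lower at an unadjusted p under 0.05 in limma). These shares, 13.3% and 0%, compare with 8.93% and 8.54% of all tested genes. The unadjusted counts compare with 2077 higher and 2055 lower of all 12760. The median of the list was 0.04 and became -0.02 when mitochondrial transcripts were left out of the scaling. That scaling lowered the median of every list, for the heat shock chaperones from 0.11 to 0.04, and that of all tested genes from -0.01 to -0.07. Dnajc19, a J-domain protein of the inner membrane, rose from 50.2 ± 4.18 to 61.4 ± 3.73 TPM (0.29 ± 0.07, adjusted p = 0.0275), and the intermembrane space protease Htra2 from 21.6 ± 2.21 to 27.0 ± 2.48 TPM (0.31 ± 0.09, 0.0446). Afg3l2, a protease of the inner membrane, did not pass (-0.10 ± 0.04, 0.133). With 1 library left out, Dnajc19 passed in 3 of the 8 fits (those lacking WT 2, WT 3 or PIM1+/- 3, up to 0.0667 in the others), and Htra2 in 2 (those lacking WT 3 or PIM1+/- 2, up to 0.105 in the others).

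Of 14 genes of the cytosolic chaperonin TRiC and of prefoldin, which fold actin and tubulin, 2 rose and 1 fell, with a median of 0.09. These shares, 14.3% and 7.14%, compare with 8.93% and 8.54% of all tested genes. Of the 8 TRiC subunits 7 had a log2 fold change above 0 (as did 6130 of all 12760 tested genes), and Cct4 did not. Of the 7, Cct2 (0.01 ± 0.06) and Tcp1 (0.04 ± 0.06) lay near 0. Cct3 rose from 85.7 ± 6.90 to 108 ± 3.03 TPM (0.33 ± 0.06, limma adjusted p = 0.00860) and Cct5 from 124 ± 8.07 to 143 ± 6.36 TPM (0.21 ± 0.06, 0.0447). Cct4 fell from 88.1 ± 3.34 to 77.7 ± 2.28 TPM (-0.18 ± 0.05, 0.0340). Cct3 passed in each of the 8 fits with 1 library left out (0.00741 to 0.0295), Cct5 in none (0.0514 to 0.101), and Cct4 only without WT replicate 4 or PIM1+/- replicate 4 (up to 0.0996 otherwise).

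The chaperones of the endoplasmic reticulum showed the highest median of the 8 lists, 0.35. Of 16 tested 5 rose (31.3%, against 8.93% of all tested genes) and 0 fell. At an unadjusted p under 0.05 in limma 13 of the 16 were higher and 0 lower, against 2077 and 2055 of all 12760. The number that rose was 9 without WT replicate 2, 3 without WT replicate 1, 2 without WT replicate 3 or 4, 2 with no filter and 0 with the marker score as a covariate. PIM1+/- replicate 1 was the highest PIM1+/- library for each of the 16, the 5 that rose included. It met the rule for a library that stands apart, given below, for 6 of the 16 (Hspa5, Hsp90b1, Hyou1, Dnajb11, Dnajc3 and Creld2). Pdia6, a disulfide isomerase, rose from 107 ± 10.2 to 167 ± 25.0 TPM (0.63 ± 0.11, adjusted p = 0.00529), and its relative Pdia3 from 260 ± 15.7 to 347 ± 37.8 TPM (0.41 ± 0.08, 0.00969). Calr, the lectin chaperone calreticulin, rose from 362 ± 31.8 to 486 ± 68.1 TPM (0.42 ± 0.10, 0.0199). Pdia6 and Pdia3 passed in each of the 8 fits with 1 library left out (up to 0.0176 and 0.0304), and Calr in 5, not without WT replicate 1, 3 or 4 (up to 0.0567). The other 2 that rose were Pdia4 (0.0227) and Creld2 (0.0440), named after their values were seen.

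**Figure D4:**
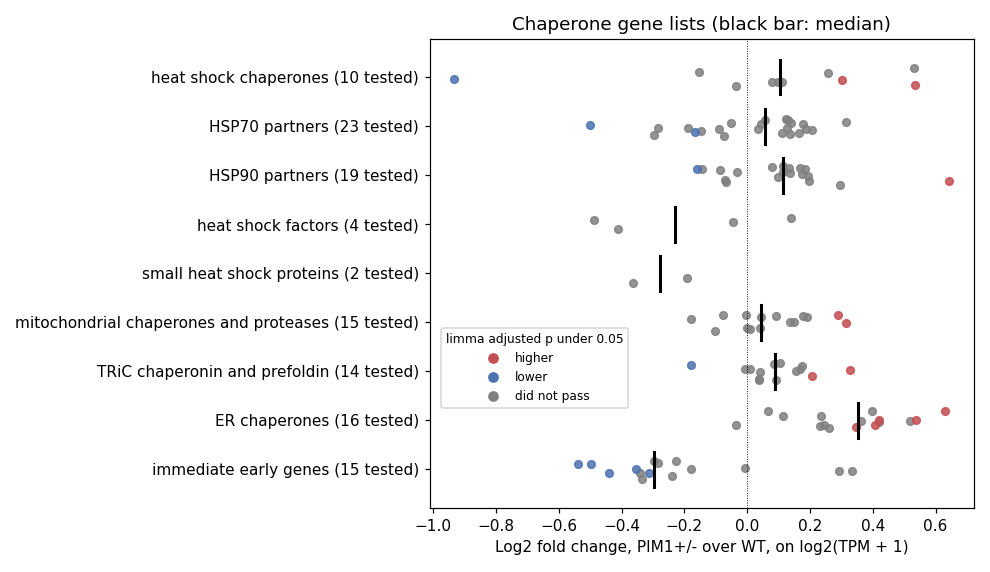
Log2 fold change (PIM1+/- over WT, on log2(TPM + 1), horizontal axis) of every tested gene in the heat shock chaperones and the 8 other lists (rows), coloured by limma adjusted p under 0.05, with a black bar at the median of each list. The median is 0.35 for chaperones of the endoplasmic reticulum, 0.11 for the heat shock chaperones and -0.30 for immediate early genes.

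Immediate early genes encode factors such as Fos and Jun that are transcribed within minutes of a stimulus. Of 15 tested (of 16) 5 fell (33.3%, against 8.54% of all tested genes) and 0 rose, with a median of -0.30. At an unadjusted p under 0.05 in limma 10 of the 15 were lower and 2 higher, against 2055 and 2077 of all 12760. The number that fell was 9 without WT replicate 2, 2 without any 1 of the other WT libraries or PIM1+/- replicates 1 and 2, 3 without PIM1+/- replicate 3 or without the trend, and 0 with no filter or with the marker score as a covariate. Fosb fell from 147 ± 24.8 to 101 ± 10.7 TPM (-0.54 ± 0.12, adjusted p = 0.0165), Nr4a1 from 37.0 ± 5.67 to 26.8 ± 1.56 TPM (-0.44 ± 0.10, 0.0195) and Jund from 276 ± 29.4 to 215 ± 18.0 TPM (-0.36 ± 0.09, 0.0259). The other 2 that fell were Dusp1 (0.0413) and Zfp36 (0.0426), named after their values were seen. With 1 library left out, Fosb passed in all 8 fits (up to 0.0486), Nr4a1 in 6, not without WT replicate 1 or PIM1+/- replicate 2 (up to 0.0564), and Jund in 4, not without WT replicate 2, 3 or 4 or PIM1+/- replicate 1 (up to 0.0657). The summed level of the list was 2282 to 2936 TPM in WT and 2086 to 2354 TPM in PIM1+/-. WT replicate 2, the highest WT library for 7 of the heat shock genes, had the lowest of the WT sums (2282 TPM), and the part of these genes in the results above was not tested.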

How the data were processed

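Total RNA of colon epithelial cells was taken up in TRIzol and read on an Illumina NovaSeq, per the labels' protocols and the design text of the series. TPM per gene is the unit the authors deposited, and the design text names RSEM for it. HISAT2, StringTie, edgeR and GRCm38.p6 also appear in the submitters' processing notes, without versions or roles. The sources used here do not give strand setting, annotation release or depth. TPM is relative: a change in abundant transcripts shifts every other value, and RSEM divides reads of near-identical genes by estimation.

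All 8 per-sample columns were used (0 were left out). Log2(TPM + 1) was modelled on genotype in limma 3.58.1 (R 4.3.3), two-sided, with empirical Bayes moderation along a mean-variance trend. Genes needed 1 TPM or more in 4 of the 8 libraries, which left 12760, and Benjamini-Hochberg adjustment ran over all of them with a threshold of 0.05. A fold change on log2(TPM + 1) understates the change of low genes. The fit was also run on simulated data with planted changes and independent noise for each gene and library. That run covered neither genes as low as Hspb1, nor changes as small as that of Hspd1, nor spread shared between genes. Coordinates came from GENCODE M21 (GRCm38), transcript matches from BLAST+ 2.17.0, promoter windows from RefSeq, and figures from matplotlib 3.10.9.

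The members and lists were chosen with earlier results of these data known. Named were all 10 members and, of each other list, the tested genes with the smallest p (3 where any passed, otherwise 1), and the 5 genes most correlated with the members. The alternatives tried were a fit with no trend, 2 other scalings (upper quartile, and leaving out mitochondrial transcripts), filters of none and of a 5 TPM mean, a pseudocount of 0.1, a block for replicate number, a covariate built from non-epithelial markers, Hspa1a and Hspa1b summed, and each library left out in turn.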

Additional observations from a re-analysis of the deposited data

Results flagged for a closer look

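Single libraries that stand apart were searched for over the 10 heat shock genes and the 108 tested genes of the other lists, 118 in all, in each genotype separately (4 libraries, gap over range above Dixon's 95% critical value). Of 236 groups of 4 libraries 16 met the rule, where chance alone flags about 1 in 20, or 11.8. Of the 10 heat shock genes 1 was among them: Hsp90ab1 measured 613.99 TPM in WT replicate 4, below the 685.16 to 696.88 TPM of the other WT libraries.

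PIM1+/- replicate 1 accounted for 9 of the 16. It was the highest PIM1+/- library for Hspa9 (167.77 TPM, others 145.66 to 149.21), Cct7 (115.18, others 94.44 to 97.89), Hspa5 (388.12, others 267.59 to 281.28) and Hsp90b1 (306.42, others 224.84 to 234.43). The same held for Hyou1 (55.05 TPM, others 38.12 to 40.22), Dnajb11 (114.45, others 91.97 to 95.6), Dnajc3 (37.9, others 31.25 to 31.99) and Creld2 (57.98, others 37.6 to 40.15). It was the lowest for Ppp5c (85.09 TPM, others 92.02 to 92.46).

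WT replicate 4 was also the lowest WT library for Clpp (40.96 TPM, others 44 to 44.44), Cct5 (111.9, others 127.17 to 129.24) and Hsp90b1 (178.63, others 214.5 to 218.05). WT replicate 2 was the lowest for Lonp1 (35.16 TPM, others 37.77 to 37.96) and Ier2 (169.67, others 225.57 to 234.51), and the highest for Manf (198.21, others 139.92 to 145.85).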

How the results depend on the processing

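Of the 10 heat shock genes 2 passed as higher and 1 as lower in limma. The number higher was 0 without the trend, under upper quartile scaling, under scaling without mitochondrial transcripts, with no filter and with the marker score as a covariate (3 to 4 members higher at an unadjusted p under 0.05, and 0 with the score), and 3 at a mean of at least 5 TPM. The number lower was 0 with no filter, with the score and at a mean of at least 5 TPM (1, 1 and 0 at an unadjusted p under 0.05). At an unadjusted p under 0.05 in limma, the main fit gave 4 members higher and 1 lower. Of all 12760 tested genes it gave 2077 and 2055. Leaving out each library in turn gave 0 to 4 higher (4 when WT replicate 2 was dropped, 0 when any 1 of the other WT libraries or PIM1+/- replicates 3 and 4 was) and 0 to 1 lower. Such fits have fewer samples, and each called 746 to 1004 of all genes higher and 616 to 1054 lower, against 1139 and 1090. No filter gave 666 lower. The direction turned for Hspa1a with the score (-0.12) and for Hsph1 without WT replicate 4 (-0.034) or PIM1+/- replicate 3 (-0.039, the lowest of a range up to 0.23), and for no other member. The cause was not tested. Other scalings shifted the median of all genes from -0.01 to -0.05 and -0.07, and the share of calls that were higher from 51.1% to 37.9% (upper quartile) and 35.4% (without mitochondrial transcripts). Counts in the other lists moved by more than 1.5 times in 91 of 272 values, for chaperones of the endoplasmic reticulum between 0 and 9 higher and for immediate early genes between 0 and 9 lower.

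With the replicate number as a block, 0 heat shock genes were higher (4 at an unadjusted p under 0.05, limma adjusted p = 0.0957 for Hspa1b and 0.0751 for Hspd1) and 1 was lower, among 760 higher and 689 lower of all genes. Same-numbered libraries had correlations of -0.14, 0.03, -0.03 and -0.07 between their deviations from the genotype means. Such values cannot tell whether the numbers pair the libraries, and the labels do not say. The block costs residual degrees of freedom. TPM keeps no depth, so no limit of detection can be given for Hspb1, at 0.38 to 3.28 TPM.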
